A study of Gallus gallus with 6 samples.

Results

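The death receptor and necroptosis genes FAS, FADD, RIPK1, RIPK3, CASP8, CASP10, CFLAR, BID and TRADD were examined in chicken monoblasts transformed by a mutated or a wild type v-Myb. They are 9 of the 13051 genes that the array's platform annotation names by a single symbol. All 16 probe sets carrying 1 of these symbols alone were taken, of 38439 probe sets that are not array controls. RIPK3 had lower values in deltaP cells in each pair of arrays on all 3 of its probe sets, and FADD higher ones on its 1 measurable probe set. BID, TRADD and 2 of 3 CFLAR probe sets were also higher in each pair. Of all probe sets tested, 32.5% had 1 direction in every pair. No member passed the adjusted threshold over the whole array. In the RefSeq gene table of chicken assembly GRCg7b, FAS lies on chromosome 6, FADD on 5, RIPK1 on 2, BID on 1, RIPK3 and TRADD on 11, and CASP8, CASP10 and CFLAR on 7.

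Primary monoblasts, the precursors of monocytes and macrophages, came from Brown Leghorn chickens and carried either deltaP v-Myb (3 biological replicates) or wild type v-Myb (3 biological replicates). v-Myb is the transforming transcription factor of avian myeloblastosis virus. Both groups were moved to culture 16 days post infection, and cells of both groups carried a transforming v-Myb. The series title concerns INK4A expression and the v-Myb leucine zipper region, and the residues altered in deltaP, and whether a replicate is 1 clone, are not stated in the labels. Total RNA was hybridized to 6 Affymetrix chicken arrays, 1 per replicate, and the deposited values are log2 expression values.

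Death receptors start a signal at the cell surface that can end in apoptosis or in necroptosis. The ligated receptor FAS binds the adaptor FADD, which recruits the initiator caspases CASP8 and CASP10, and CFLAR, a caspase-like protein without protease activity, regulates their activation. TNF receptor 1 reaches the same machinery through TRADD and the kinase RIPK1. In mammals, RIPK1 and RIPK3 form a kinase complex that drives necroptosis when CASP8 is not active, and CASP8 carries the apoptotic signal to mitochondria by cleaving BID.

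Adding the deltaP and wild type values of 1 replicate number gave the same sum for all 3 numbers, for every probe set and with a tolerance of 0.001 log2 units. The values therefore hold 3 independent differences, 1 per pair of same-numbered arrays, and a single deposited value is not the measured level of that array. Errors are the SD of these 3 differences. Because of the constant sums, the arrays of the groups failed to overlap in nearly the same number of probe sets (5266) as had all 3 pairs differing in 1 direction (5267), so absence of overlap is no separate evidence. An exact two-sided test of 3 pair signs cannot give a p under 0.25. Differences were tested in limma with a block for the replicate number, over the 16199 probe sets whose log2 value was over 4 in at least 3 arrays. What cultures of 1 number have in common is not stated in the labels. Probe sets of 1 gene are told apart by their brightness over the 6 arrays.

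The labelled cell type was checked against its markers. Of 7 measured monocyte and macrophage markers, 6 were over a log2 value of 4 on every array, and the list's mean was 10.38 to 10.71 on deltaP arrays and 10.48 to 10.81 on wild type arrays. Of the other lists, 5 of 5 heterophil and granulocyte, 3 of 7 lymphocyte, 3 of 5 erythroid, 1 of 6 fibroblast and 0 of 2 thrombocyte markers were over that value on every array. The erythroid count includes ALAS1, which was matched by synonym to the list's entry ALAS2, beside the globin genes HBA1 and HBAD. The fibroblast genes COL1A1 and COL1A2 and the B cell genes PAX5 and CD79B were under it on every array. The heterophil and granulocyte list was as bright as the monocyte list, with a mean of 10.62 to 11.13 on deltaP arrays and 10.48 to 10.99 on wild type arrays, so these markers do not set the one cell type apart from the other. The lymphocyte list had a mean of 4.75 to 5.31 on deltaP and 4.72 to 5.29 on wild type arrays. That mean includes CD4, CD8A, CD79B and PAX5, which were under a log2 value of 4 on every array. Its 3 tested genes are those of the T cell receptor complex, and they were brighter. CD3D averaged 10.02 in deltaP and 10.59 in wild type cells, CD247 8.12 and 7.73, and CD3E 6.31 and 6.06. These 3 genes differed by -0.57 ± 1.44 (CD3D), 0.25 ± 2.36 (CD3E) and 0.39 ± 0.34 (CD247), each with SD, n = 3 pairs. None had 1 direction in all pairs. Some markers differed between the groups in 1 direction in every pair, and they are named here after their values were seen. S100A12, matched by synonym to the granulocyte list, averaged 8.15 in deltaP and 5.98 in wild type cells and was higher in 3 of 3 pairs (difference 2.17 ± 0.52, SD, n = 3 pairs, adjusted p of 0.191 in limma), while the other 4 granulocyte genes differed in both directions over the pairs. Of 6 tested monocyte genes, 2 were higher and 4 lower in deltaP. The transcription factor gene IRF8 (difference -0.52) and the receptor gene CSF1R (-0.30) were lower in 3 of 3 pairs, and SPI1 (0.12) was higher in 3 of 3. Their adjusted p in limma was 0.490, 0.643 and 0.735, and a dimmer CSF1R probe set had 0.0068 in pair 2. ALAS1 of the erythroid list (0.20) was also higher in 3 of 3. Of all tested probe sets, 32.5% differed in 1 direction in every pair. The part of these markers or of other cells in the results below was not tested. The MYB probe set was dim in both groups (2.17 in deltaP and 2.15 in wild type), so the v-Myb transgenes could not be checked with it. CDKN2A, the gene behind INK4A in mammals, averaged 11.24 in deltaP and 8.47 in wild type cells (log2 difference 2.76 ± 0.98, SD, n = 3 pairs).

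At an adjusted p under 0.05, limma with the block called 0 of the 13 tested member probe sets, and it called 0 of 16199 (0%) over the whole array. At an unadjusted p under 0.05 it gave 5 of the 13, which were all 3 RIPK3 probe sets lower in deltaP and 1 probe set each of FADD and CFLAR higher. The share of all tested probe sets past that level was 9.26%, with 3.6% higher and 5.66% lower in deltaP. Probe sets annotated to 1 gene do not count as separate genes. With each gene taken by its brightest tested probe set, 1 of 8 member genes was higher and 1 lower at that level. Of all tested genes, 9.99% passed it. The other 3 probe sets of the 16, the only one of CASP10 and 2 of FADD, were under 4 on every array and were not tested. Of the 13, 6 had a higher and 7 a lower mean in deltaP, with a median difference of -0.0043, beside -0.0033 over all tested probe sets. In the limma fit without the block, 5 of the 13 passed an adjusted p under 0.05, where 6.91% of all tested probe sets did. That fit takes the 6 values of a probe set as independent, which they are not, and it is given only for comparison. For the tested member probe sets that it did not call, the adjusted p in limma without the block ran from 0.0835 (middle CFLAR) to 0.992 (RIPK1).

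**Figure D1:**
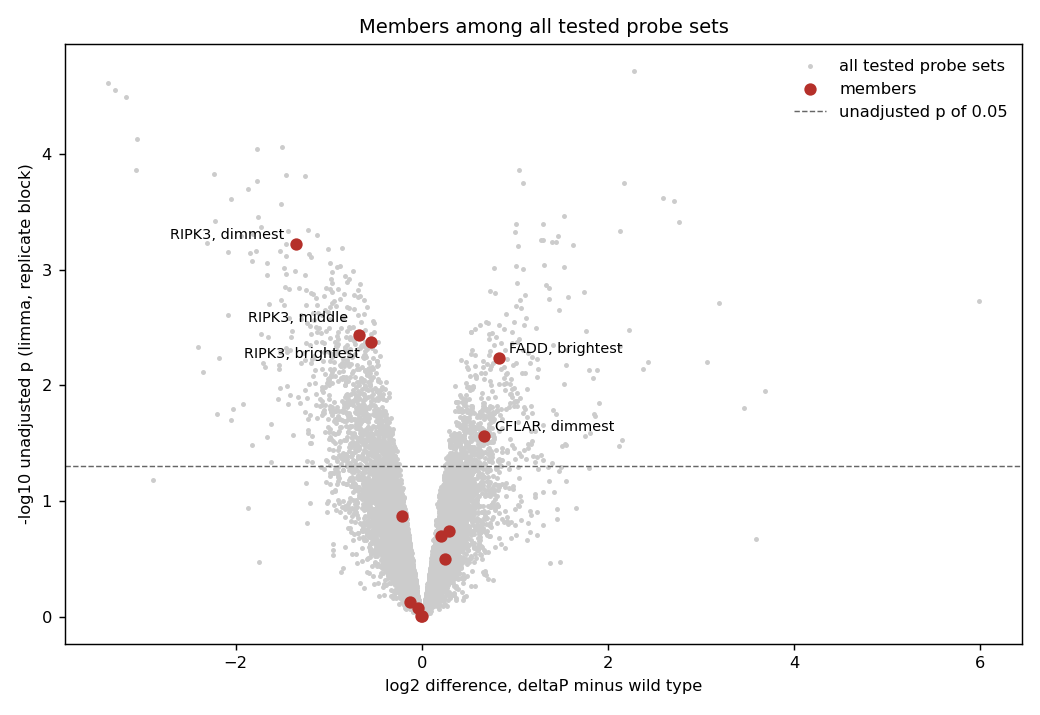
Log2 difference (x axis, deltaP minus wild type) against -log10 of the unadjusted p in limma with the replicate block (y axis) for 16199 tested probe sets, with the 13 member probe sets in red. The 3 RIPK3 points lie left of 0 and those of FADD and CFLAR right of 0 above the dashed line of the unadjusted level, and the other 8 members lie under it.

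The receptor FAS did not differ beyond its spread. Its brighter probe set had 9.42, 9.94 and 9.63 in deltaP and 9.91, 9.39 and 9.70 in wild type cells, so the groups overlapped. The pair differences were -0.50, 0.55 and -0.063, with a mean of -0.0043 ± 0.52 (SD, n = 3 pairs) and a 95% interval in limma from -0.55 to 0.54. The dimmer FAS probe set had 7.05, 7.36 and 7.08 in deltaP against 7.32, 7.01 and 7.29 in wild type cells. Its pair differences of -0.26, 0.35 and -0.21 had the same signs as those of the brighter one in each pair. Its 95% interval in limma ran from -0.54 to 0.46.

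FADD, the adaptor between receptor and caspases, had higher values in deltaP cells. Its measurable probe set (Entrez gene 423146) had 6.69, 6.53 and 6.68 on the deltaP arrays and 5.76, 5.91 and 5.76 on the wild type arrays. Every deltaP value lay above every wild type value, and 32.5% of all tested probe sets had no overlap in 1 direction or the other. The pair differences of 0.93, 0.62 and 0.92 averaged 0.82 ± 0.18 (SD, n = 3 pairs), a 1.77-fold higher level in deltaP. In bulk RNA, more cells expressing a gene and more RNA per cell cannot be told apart. The same holds for fewer cells and less RNA per cell where values were lower, as for RIPK3 below. The 95% interval in limma ran from 0.35 to 1.30, the unadjusted p was 0.00581 and the adjusted p 0.347. Without the block, in the fit given only for comparison, the adjusted p in limma was 0.0118. The other FADD probe sets stood at background, between 2.22 and 2.38 on all 6 arrays, so the FADD difference rests on 1 of 3 probe sets.

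**Figure D2:**
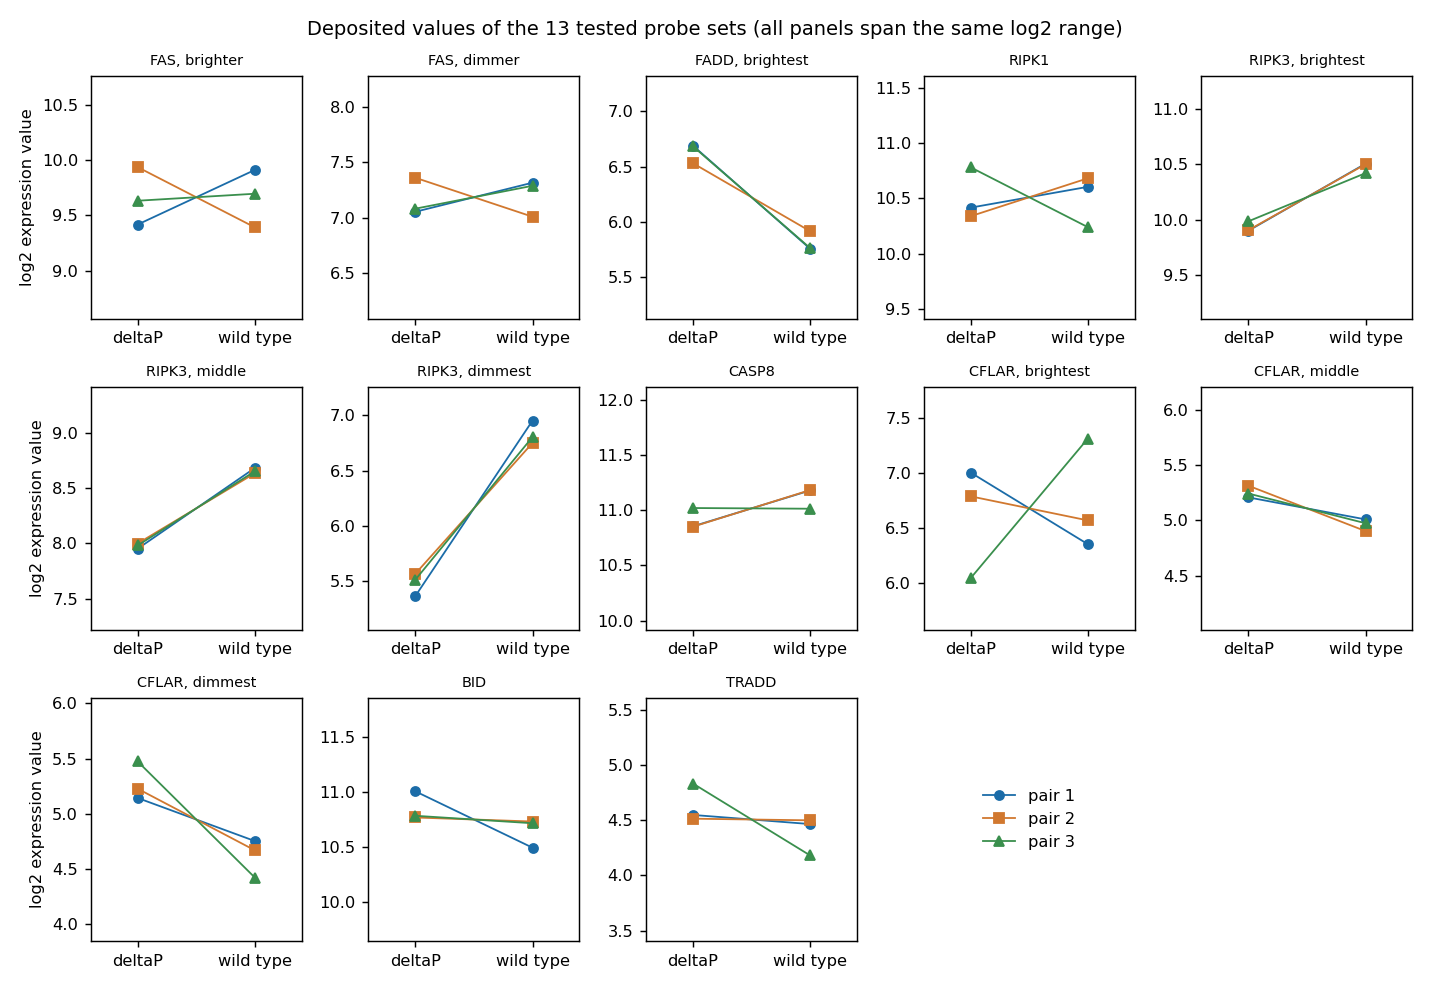
Deposited log2 values (y axis) of the 13 tested probe sets in deltaP (left) and wild type (right) arrays, with lines joining the same-numbered arrays. The lines of RIPK3 run upwards to wild type and those of FADD downwards in all 3 pairs, while those of FAS, RIPK1 and the brightest CFLAR probe set run both ways.

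TRADD, the adaptor that brings RIPK1 to TNF receptor 1, was barely over the filter. It had 4.55, 4.51 and 4.83 in deltaP against 4.47, 4.50 and 4.18 in wild type cells. The TRADD difference of 0.25 ± 0.35 (SD, n = 3 pairs) came mostly from pair 3 (0.65, against 0.083 and 0.015), with 0.771 as the adjusted p in limma.

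The kinase RIPK1, the partner of RIPK3 in mammals, had 10.42, 10.34 and 10.78 in deltaP and 10.61, 10.68 and 10.24 in wild type cells. Its pair differences of -0.19, -0.34 and 0.54 cancelled to a mean of 0.0033 ± 0.47 (SD, n = 3 pairs). The 95% interval in limma, from -0.49 to 0.50, leaves room for a difference of about that size either way.

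RIPK3, the kinase that acts with RIPK1 in the necroptosis complex, had lower values in deltaP cells on each of its 3 probe sets and in each of the 3 pairs. The dimmest of these probe sets had the widest difference, with log2 values of 5.36, 5.56 and 5.51 on the deltaP arrays, against 6.95, 6.75 and 6.80 on the wild type arrays. The pair differences were -1.59, -1.19 and -1.29. That all deltaP arrays lay under all wild type arrays restates their shared sign, because of the constant sums. The mean difference was -1.36 ± 0.21 (SD, n = 3 pairs), a level 2.56-fold lower in deltaP. Its 95% interval in limma ran from -1.84 to -0.87, with a p of 0.000604 before adjustment and 0.228 after it. It ranked 42 by p among the 16199 probe sets, and 0.809% of them had a wider difference in either direction.

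The brighter RIPK3 probe sets had smaller differences. On the middle one the values were 7.95, 8.0 and 7.98 in deltaP and 8.68, 8.64 and 8.65 in wild type cells, a 1.60-fold lower level. The pair differences there were -0.73, -0.64 and -0.67 (mean -0.68 ± 0.048, SD, n = 3 pairs), a spread narrower than that of all but 2.66% of the tested probe sets. The brightest RIPK3 probe set gave 9.90, 9.90 and 9.98 in deltaP against 10.51, 10.50 and 10.42 in wild type cells. This was a 1.46-fold lower level, with pair differences of -0.61, -0.60 and -0.44 (mean -0.55 ± 0.096, SD, n = 3 pairs). In limma the unadjusted p was 0.00367 and 0.00423 for these probe sets, and the adjusted p was 0.327 and 0.334. On neither probe set did any deltaP array reach the wild type arrays, which again restates the shared sign of the pairs. The difference on the dimmest probe set lay further from 0 than that on the brightest, with gaps of -0.98, -0.59 and -0.86 log2 units in pairs 1, 2 and 3. The probe sets thus gave the same direction and different sizes. GCRMA can compress or inflate the differences of dim probe sets, and its part in these sizes was not tested.

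The adjusted p in limma without the block was 0.00532 for the dimmest, 0.00769 for the middle and 0.0103 for the brightest RIPK3 probe set. That fit takes dependent values as independent, so these are given only for comparison. Among the 1330 genes with at least 3 tested probe sets, 26 (1.95%) had every tested probe set at an unadjusted p under 0.05 in 1 direction, and RIPK3 was 1 of them. That count was chosen after the RIPK3 values were seen. The middle RIPK3 probe set (Entrez gene 415708), like that of BID and the dimmest of CFLAR, is of the kind that can match several related transcripts.

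The initiator caspase gene CASP8 had 10.85, 10.85 and 11.02 in deltaP and 11.18, 11.18 and 11.01 in wild type cells. It was lower in deltaP by 0.33 log2 units in each of pairs 1 and 2, and pair 3 showed almost no difference (0.0063). The mean was -0.22 ± 0.19 (SD, n = 3 pairs), with a 95% interval from -0.53 to 0.094 and an adjusted p of 0.652 in limma. CASP10, the other initiator caspase, was at background on all 6 arrays, at 2.18 to 2.20 in deltaP and 2.19 to 2.21 in wild type cells, so no difference could be measured there. Gene order in GRCg7b places CFLAR, CASP10, CASP18 and CASP8 next to each other on chromosome 7. CASP18, a caspase close to CASP8 that the chicken genome carries, averaged 9.72 in deltaP and 9.75 in wild type cells (difference -0.034 ± 0.37, SD, n = 3 pairs). Within this block of neighbours, CASP8 and CASP18 were well over the filter and CASP10 was not.

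CFLAR, the caspase-like regulator at the same complex, had probe sets that disagreed. Its dimmest probe set had 5.14, 5.23 and 5.48 in deltaP and 4.75, 4.67 and 4.42 in wild type cells, a 1.59-fold higher level. Its pair differences were 0.39, 0.56 and 1.05 (mean 0.67 ± 0.34, SD, n = 3 pairs), and its p in limma was 0.0275 before adjustment and 0.469 after it. Without the block, in the fit given only for comparison, the adjusted p in limma was 0.0448. The middle CFLAR probe set had 5.21, 5.31 and 5.24 in deltaP against 5.01, 4.90 and 4.97 in wild type cells. It was higher in all 3 pairs by a mean of 0.29 ± 0.11 (SD, n = 3 pairs), with an adjusted p of 0.688 in limma.

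The brightest CFLAR probe set had 7.0, 6.79 and 6.05 in deltaP and 6.36, 6.57 and 7.31 in wild type cells. It was higher in deltaP in pairs 1 and 2 (0.65 and 0.22) and lower in pair 3 (-1.27), and the groups overlapped. In pair 3 the difference on the dimmest probe set exceeded this one by 2.32 log2 units, against -0.26 and 0.34 in pairs 1 and 2. Its mean difference of -0.13 ± 1.0 (SD, n = 3 pairs) had an adjusted p of 0.936 in limma, and 96.2% of the tested probe sets had a smaller SD over the pairs. No single direction can be given for CFLAR.

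BID, the CASP8 substrate that carries the signal to mitochondria, had 11.01, 10.77 and 10.78 in deltaP against 10.49, 10.73 and 10.72 in wild type cells. It was higher in deltaP in 3 of 3 pairs, by 0.51, 0.037 and 0.068. The mean of 0.21 ± 0.27 (SD, n = 3 pairs) was smaller than its spread and came mostly from pair 1, with an adjusted p of 0.698 in limma. Of the 13 tested member probe sets, 8 differed in 1 direction in every pair, where 32.5% of all tested probe sets did. These were 5 higher in deltaP (FADD, BID, TRADD and 2 of CFLAR) and the 3 of RIPK3 lower. Several of them thus measure the same gene. By the brightest tested probe set of each gene, 4 of 8 member genes differed in 1 direction in every pair, beside 2590 of all 7768 tested genes.

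**Figure D3:**
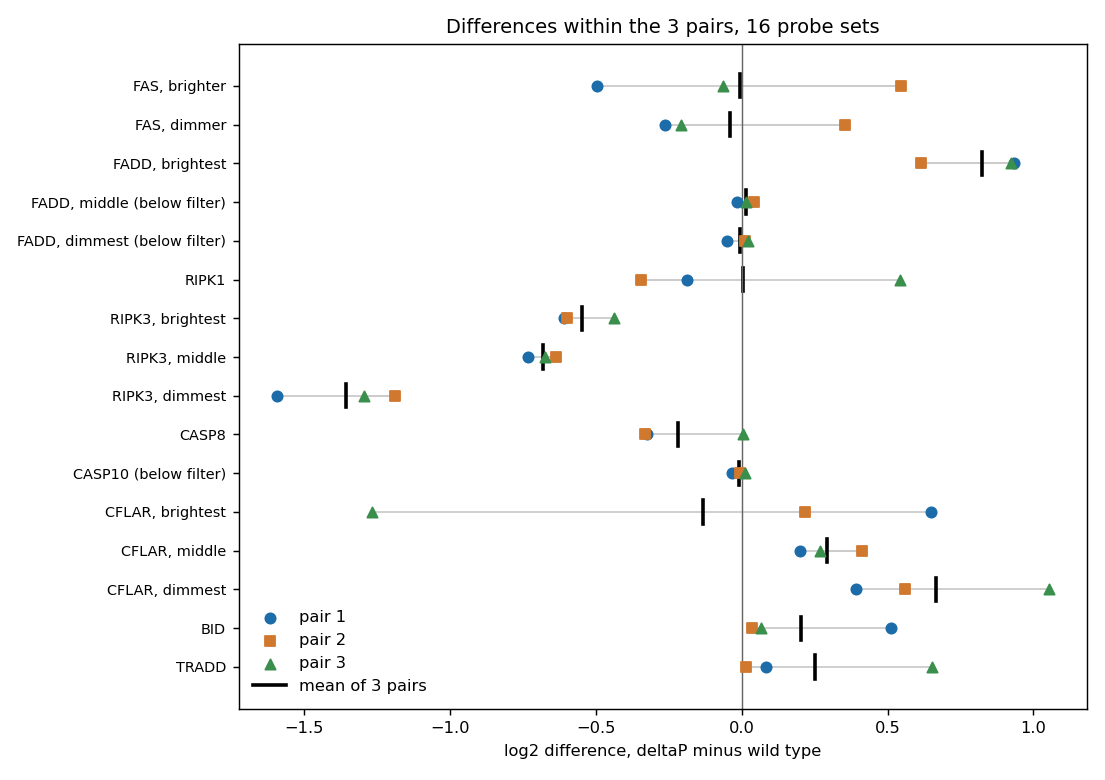
Log2 differences (x axis, deltaP minus wild type) within pair 1, 2 and 3 for all 16 member probe sets, with the mean of the 3 pairs as a bar. RIPK3 lies between -1.59 and -0.44, the measurable FADD probe set between 0.62 and 0.93, and 1 CFLAR probe set reaches from -1.27 to 0.65.

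Pair 3 differed from the other pairs in genes outside this pathway. Of 22 tested interferon response genes, 22 were higher in deltaP in pair 3, with a median of 1.93, against 13 in pair 1 (median 0.13) and 12 in pair 2 (median 0.079). Of all 7768 tested genes, 3555 were higher in pair 3 (median -0.043), 4211 in pair 1 and 4184 in pair 2. The interferon difference was not confined to pair 3. By the mean of the pairs, 21 of the 22 genes were higher in deltaP. In every pair 8 of the 22 had 1 direction, beside 2590 of all 7768 genes. Among them were IRF7 (0.61, 0.37 and 0.47), ADAR (0.43, 0.42 and 0.43) and GBP (0.87, 0.32 and 0.88), named after their values were seen. At an adjusted p under 0.05, limma called 0 of the 22. MX1, an antiviral GTPase gene, differed by 0.44, 0.35 and 3.30 in pairs 1, 2 and 3, and the transcription factor gene IRF1 had -0.87, -0.077 and 0.60. Both are named because interferon genes differed in pair 3 in earlier results of these data. The poly-A control RNAs and the hybridization controls were also higher on the deltaP array of pair 3, by medians of 0.68 and 0.50. The globin genes HBA1 (1.76, -0.040 and -2.94) and HBAD (2.91, 0.29 and -2.65) had their lowest difference in pair 3. So did the T cell genes CD3D (-1.17, 1.07 and -1.63), CD3E (0.41, 2.52 and -2.19) and CD247 (0.57, 0.60 and -0.011). ALAS1, the other tested gene of the erythroid list, had 0.43, 0.047 and 0.13. RIPK1, TRADD, CASP8, the brightest RIPK3 probe set and the dimmest CFLAR probe set had their highest difference in pair 3, and the brightest CFLAR probe set its lowest. Both FAS probe sets, FADD, BID, the other RIPK3 probe sets and the middle CFLAR probe set had neither there. The share of all tested probe sets with their highest difference in pair 3 was not counted, so no pattern of the members is read from this. The part of the interferon, globin or T cell genes or of the control signals in these values was not tested. With pair 3 left out, the RIPK3 difference was -1.39 on the dimmest, -0.68 on the middle and -0.60 on the brightest probe set, and the FADD difference was 0.78. All 3 pairs of these probe sets had 1 direction, so leaving out pair 3 could not change the sign. These values are no separate support.

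**Figure D4:**
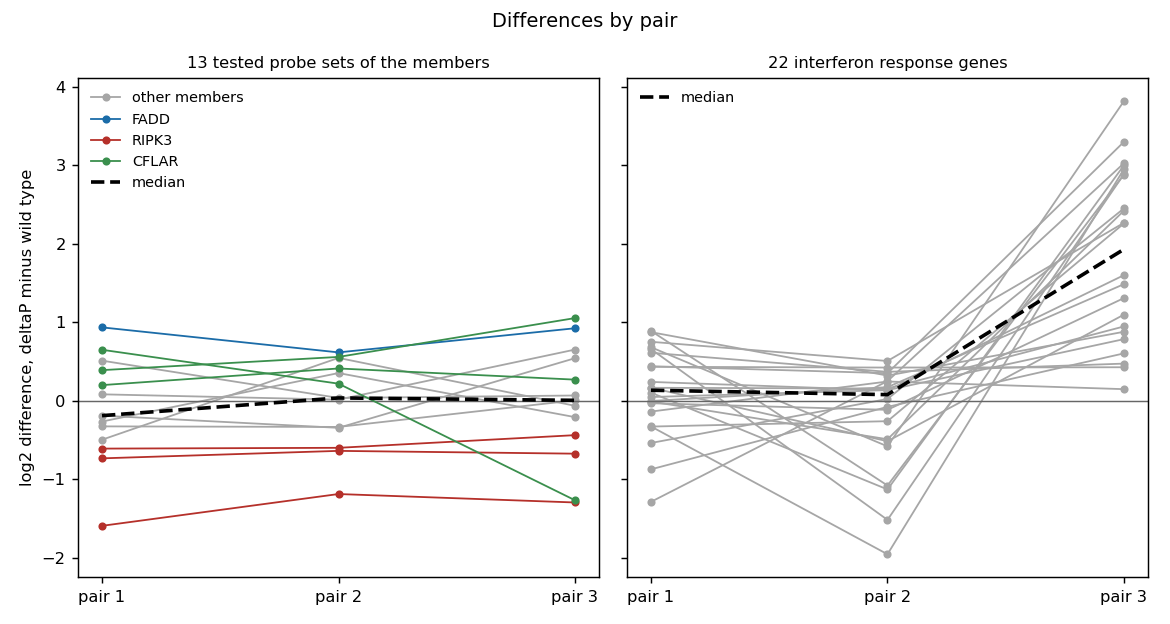
Log2 differences (y axis, deltaP minus wild type) in each pair, for the 13 tested member probe sets (left) and 22 interferon response genes (right), with lines joining the values of 1 probe set and a dashed line at the median. The interferon genes have a median of 1.93 in pair 3, where RIPK3 stays under 0 and FADD at 0.92.

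The other genes of the pathway were taken from 5 lists with 93 entries. Of these, 72 genes had an annotated probe set of 1 symbol and 58 a tested one, each represented by its brightest. FASLG, TNF, MLKL and BAX were not analysed here. Of the 58, 31 were higher in deltaP and 27 lower. Their median difference was 0.026, beside 0.0071 over all 7768 tested genes. At an adjusted p under 0.05, limma with the block called 0 of the 58 and 0% of all tested genes, and without the block it called 2 of the 58, where it called 7.71% of all tested genes. At an unadjusted p under 0.05 there were 3 higher and 3 lower, which is 6 of 58, where 9.99% of all tested genes passed (3.93% higher and 6.06% lower).

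The ligand list had 2 tested genes, and neither passed even the unadjusted level. TNFSF10, which encodes the death ligand TRAIL, averaged 9.10 in deltaP and 9.19 in wild type cells (difference -0.086 ± 0.52, SD, n = 3 pairs). LITAF, a regulator of TNF expression and not itself a ligand, averaged 7.97 in deltaP and 7.55 in wild type cells (difference 0.42 ± 0.49, SD, n = 3 pairs). Its second probe set had the opposite sign (-0.26 ± 0.18, SD, n = 3 pairs).

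Of 4 tested receptor genes 2 were higher and 2 lower, and 0 passed the unadjusted level. TNFRSF1A, the TNF receptor that binds TRADD, averaged 9.36 in deltaP and 8.86 in wild type cells, with pair differences of 0.73, 0.95 and -0.18 and an adjusted p of 0.604 in limma. TNFRSF10B, a receptor of TRAIL, averaged 8.96 in deltaP and 9.22 in wild type cells (difference -0.26 ± 0.31, SD, n = 3 pairs), and its dimmer probe set gave 0.063.

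Among 27 adaptors, kinases and ubiquitin enzymes, 15 were higher and 12 lower in deltaP (median 0.020). TRAF5, an adaptor of TNF receptor family members, averaged 6.44 in deltaP and 7.33 in wild type cells. Its pair differences were -1.43, -0.94 and -0.29 (adjusted p of 0.421 in limma), and a second, dimmer TRAF5 probe set gave a mean of -0.11. MADD, a protein that binds the death domain of TNF receptor 1, averaged 10.82 in deltaP and 11.43 in wild type cells, with differences of -1.16, -0.48 and -0.20 and an adjusted p of 0.461 in limma. The other 3 tested MADD probe sets were lower in deltaP on average but higher in pair 3. RIPK2, a kinase of NOD receptor signalling named here after its value was seen, was the 1 gene of the list higher at the unadjusted level. It averaged 7.49 in deltaP and 6.91 in wild type cells (difference 0.58 ± 0.47, SD, n = 3 pairs), and its second tested probe set gave a smaller mean of 0.18 ± 0.32 with pair 1 at -0.057.

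Of 11 caspases and caspase-linked inhibitors 4 were higher and 7 lower (median -0.034). DFFA, the inhibitor that holds the apoptotic nuclease DFFB inactive, averaged 6.58 in deltaP and 7.14 in wild type cells. Its pair differences of -0.36, -0.60 and -0.70 gave an adjusted p of 0.448 in limma with the block. Limma without the block, given only for comparison, had an adjusted p of 0.0264. The initiator caspase gene CASP9 averaged 7.95 in deltaP and 8.12 in wild type cells (difference -0.17 ± 0.20, SD, n = 3 pairs).

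In the mitochondrial arm 9 of 14 genes were higher and 5 lower in deltaP (median 0.12). ENDOG, a mitochondrial nuclease, averaged 8.76 in deltaP and 8.21 in wild type cells. It had pair differences of 0.43, 0.69 and 0.54, with an adjusted p of 0.386 in limma with the block. Limma without the block, given only for comparison, had an adjusted p of 0.0154. APAF1, the scaffold that activates CASP9, averaged 9.49 in deltaP and 9.01 in wild type cells, with pair differences of 0.50, 0.067 and 0.86 and an adjusted p of 0.530 in limma. All 3 APAF1 probe sets were higher in deltaP in 3 of 3 pairs, by means of 0.47, 0.56 and 0.73. Their unadjusted p in limma was 0.0465, 0.0511 and 0.0682 in that order. Each had its highest difference in pair 3 (0.86, 1.05 and 1.62). They are annotated to the same gene, and 32.5% of all tested probe sets had 1 direction in every pair.

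**Figure D5:**
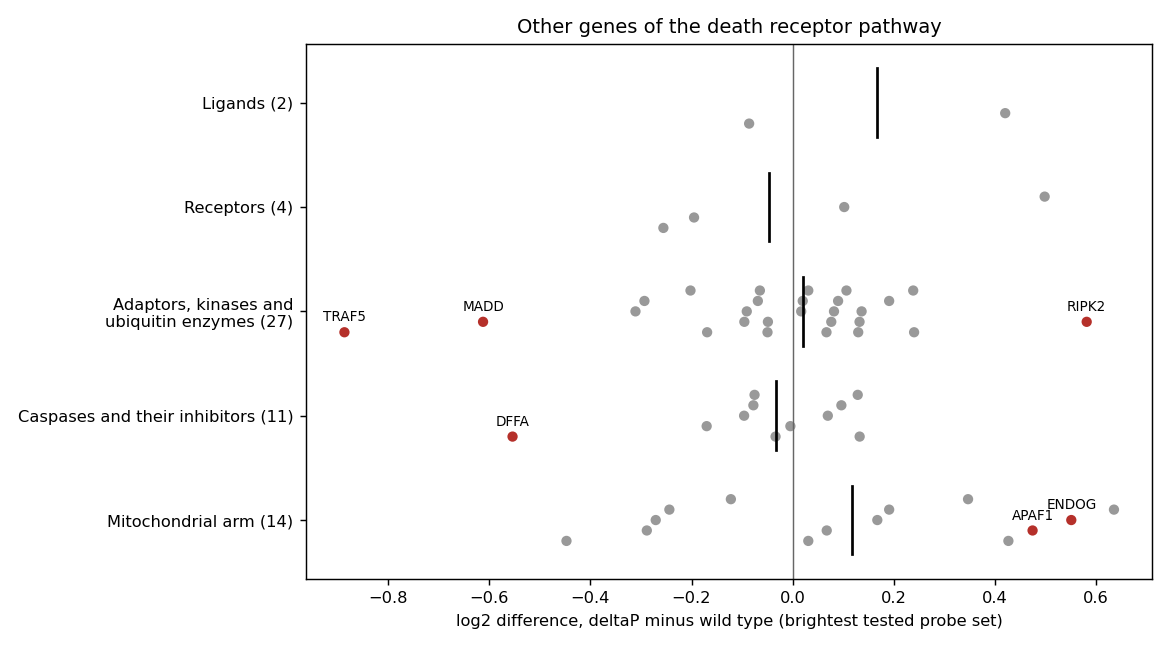
Log2 differences (x axis, deltaP minus wild type) of 58 other pathway genes by list, each gene by its brightest tested probe set, with the number of genes in brackets, list medians as bars and genes at an unadjusted p under 0.05 in limma in red. The red genes are TRAF5, MADD and DFFA left of 0 and RIPK2, APAF1 and ENDOG right of 0.

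The genes with pair differences nearest to those of RIPK3 on its dimmest probe set were DNAH1, BCAR3 and TSPAN8, by Euclidean distance over 3 pair differences among 7767 other tested genes. Their distances were 0.254, 0.385 and 0.402 log2 units. DNAH1, a dynein heavy chain of cilia, had pair differences of -1.72, -1.15 and -1.08. BCAR3, a signalling adaptor, had -1.97, -1.16 and -1.32, and the tetraspanin gene TSPAN8 had -1.86, -1.0 and -1.53. Each other gene entered by its brightest tested probe set and RIPK3 by its dimmest, so the neighbours belong to that RIPK3 probe set only. The mean difference on the dimmest RIPK3 probe set lay -0.81 log2 units from that on the brightest. With 3 values per gene, the likeness is a description of these pairs only.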

How the data were processed

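Gene expression of deltaP and wild type v-Myb monoblasts was measured on 6 arrays, from 5 µg of total RNA each. The authors deposited 1 log2 value per probe set and array, made with Partek 6.4 and GCRMA per the submitters' processing notes. That method corrects background by probe sequence and normalizes arrays to one another, so dim values cluster at a floor. The replicate number had been removed from the values, and how was not given in the sources used here. In each pair, deviations from the group means correlated at -1 between deltaP and wild type, which follows from that removal.

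Probe sets with a log2 value over 4 in at least 3 arrays (16199, 42.1%) entered a two-sided limma test (limma 3.58.1 in R 4.3.3, lmFit, then eBayes with a trend on mean value) that had the replicate number as a block and Benjamini-Hochberg adjustment over all of them at 0.05. Code was tested on simulated data with the same pair structure. Symbols came from the platform annotation (2016) and were checked by gene identifier against RefSeq GRCg7b, which matched 26853 of 27168 probe sets with 1 symbol and changed 0. Another 177 probe sets had several symbols and named no gene, and 11094 had none. List entries were matched by symbol or, failing that, by synonym.

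Members, lists and tests were chosen with earlier results of these data known. All members are named, with the 2 genes of smallest p per pathway list, CDKN2A, MX1 and IRF1, and the 3 genes nearest to the member with the smallest p. Some genes of these lists and of that rule are not reported here. Alternatives were no block, no filter, a filter at 6, no trend, the brightest probe set per gene, pairs centred on their median, and leaving out each replicate number. The number of arrays limits the precision.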

Additional observations from a re-analysis of the deposited data

How the results depend on the processing

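Without the replicate block, limma called 1120 probe sets, 5 member probe sets and 2 pathway genes, against 0 of each with it. That fit treats the 3 within-pair differences as more values than they are. With replicate numbers left out in turn, the calls lay between 0 and 12 probe sets (12 without replicate 3), with 0 members and 0 pathway genes among them. Under no filter, a filter at 6, no trend, the brightest probe set per gene and pairs centred on their median, all with the block, 0 probe sets passed. RIPK3, FADD, CASP8, BID, TRADD and 2 CFLAR probe sets kept their direction under every alternative that gave a value. This is no separate support. Except for CASP8, all 3 pairs of these probe sets had 1 direction, so leaving out a replicate could not change the sign. The block, filter, trend and brightest probe set alternatives leave a probe set's difference as it is. Differences that changed sign with a replicate left out ranged from -0.28 to 0.24 for the brighter FAS probe set, from -0.24 to 0.073 for the dimmer one, from -0.27 to 0.18 for RIPK1 and from -0.52 to 0.43 for the brightest CFLAR probe set. The value of the brighter FAS probe set was also 0.0024 with pairs centred on their median. These are differences near 0 or with wide spread over 3 pairs. The filter at 6 and the brightest probe set rule gave no value for the probe sets they leave out.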
